A study of Rattus norvegicus with 6 samples.

Results

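The genes described here encode the proteins of the cytosolic ribosome, measured by RNA-seq in 6 libraries of rat (Rattus norvegicus) subchondral bone, the bone under the joint cartilage. They were chosen by name alone, as annotated rows named Rpl, Rps, Rplp or Rpsa with a number and no paralog suffix, and the row with the higher median was kept where a name had several. The pattern matched 79 rows, which gave 72 genes of the 22050 annotated rows: 45 of the large subunit and 27 of the small subunit. The series set out to compare rats kept cold with rats at normal temperature, but no label places any of the libraries S10, S12, S13, S20, S21 and S23 in a temperature group. The sources used here also leave out the strain, age and treatment of each animal. Values are therefore shown library by library or by their range and median, without comparing groups and without a test.

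A ribosome joins a small subunit, which reads the mRNA, to a large subunit, which forms the peptide bonds. Each subunit is built from ribosomal RNA and a fixed set of proteins that are needed in equal numbers, so their genes are expressed at high and similar levels in most cells. In mammals their mRNAs typically begin with a run of pyrimidines, the terminal oligopyrimidine (TOP) tract, through which mTOR and LARP1 control their translation. In bone marrow the family is known for Diamond-Blackfan anemia, in which the loss of a single copy of a ribosomal protein gene reduces the production of red cell precursors.

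The start of the gene carries this feature, and 11 promoters are shown for that reason: 7 of the 8 highest-expressed genes (Rplp0, Rpl13, Rps2, Rpl41, Rps3a, Rps18 and Rps16) and 4 genes whose pattern over the libraries differs or whose level is very low (Rpl3, Rpl9, Rpl35a and Rpl37). Each line gives 50 bases from RefSeq on the GRCr8 build, from 30 bases before the annotated first base to 20 bases from it onward, 5′ to 3′ on the gene's strand. Capitals mark the longest run of C and T that overlaps the 5 bases on either side of the start.
Rplp0: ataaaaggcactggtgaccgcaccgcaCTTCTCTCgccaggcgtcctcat
Rpl13: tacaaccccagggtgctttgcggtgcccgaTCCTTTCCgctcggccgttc
Rps2: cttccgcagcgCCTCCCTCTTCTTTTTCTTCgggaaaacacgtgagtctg
Rpl41: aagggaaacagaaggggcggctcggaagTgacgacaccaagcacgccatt
Rps3a: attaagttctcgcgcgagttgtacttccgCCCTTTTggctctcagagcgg
Rps18: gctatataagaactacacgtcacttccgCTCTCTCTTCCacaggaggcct
Rps16: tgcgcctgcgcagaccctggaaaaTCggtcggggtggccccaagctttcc
Rpl3: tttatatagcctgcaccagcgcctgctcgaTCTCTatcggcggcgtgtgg
Rpl9: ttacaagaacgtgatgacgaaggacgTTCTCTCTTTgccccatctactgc
Rpl35a: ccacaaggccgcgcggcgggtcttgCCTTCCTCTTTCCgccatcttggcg
Rpl37: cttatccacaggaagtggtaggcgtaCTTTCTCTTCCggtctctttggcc
These windows lie at chr12:46718371-46718420 on the minus strand for Rplp0, chr19:68062484-68062533 (plus) for Rpl13, chr10:14251818-14251867 (plus) for Rps2, chr7:1563478-1563527 (minus) for Rpl41 and chr2:173827023-173827072 (minus) for Rps3a. Those of the others are chr20:4933715-4933764 (plus) for Rps18, chr1:92770628-92770677 (plus) for Rps16, chr7:113507971-113508020 (minus) for Rpl3, chr14:43247560-43247609 (plus) for Rpl9, chr11:81235002-81235051 (minus) for Rpl35a and chr2:55942915-55942964 (plus) for Rpl37. The run has 20 bases in Rps2, 11 in Rps18 and 8 in Rplp0, but 5 in Rpl3, 2 in Rps16 and a single base in Rpl41. It was placed by the annotated first base alone and can lie before that base, as in Rps2, where it begins at position -19. A long run is therefore not the same as a TOP tract, and a short run does not show that the mRNA lacks the tract. Rpsa, the remaining gene of the highest 8, has a run of 4 bases and is not printed.

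A run of C and T at the start was common in the family. The promoter table held 57 of the 72 genes by symbol, and 34 of them (59.6%) had a run of at least 8 bases, against 8.55% of 27400 other genes. The same count for A and G, the other strand's view of such a run, gave 1.75% of the family and 10.2% of other genes. The letters CCGGAAG, the core of sites for ETS factors such as GABP, were found on either strand of the 300-base promoter in 18 of 57 genes (31.6%) and in 9.17% of others. AAGATGG, part of the YY1 motif, was present in 15.8% and 7.28%, GGGCGG, the GC box, in 57.9% and 34.8%, and TATAA in 21.1% and 26.1%. Any of these motifs can overlap another, and a match is a description of letters only. Within the family the run did not go with level: the 33 genes that had a run of at least 8 bases and a median of at least 1 FPKM had a median level of 810 FPKM, and the 23 with a shorter run had 814 FPKM. FPKM counts sequenced fragments per length of transcript, relative to the size of the library.

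Among the libraries, S10 stood apart. Total counts ran from 39990624 in S10 to 59200981 in S21. In the deposited FPKM the median over the 11625 expressed annotated genes (median of at least 1 FPKM) lay 0.31 log2 units under its usual level in S10 and between -0.03 and 0.14 in the other libraries. This shift depended on length. Among genes of at least 1500 bases outside the family, S10 lay 0.59 log2 units under S20 at the median, and among those of 600 to 800 bases it lay 0.42 above. S10 also had the highest globin share of counts (27.6%, against 10.4% to 20.8% elsewhere) and the lowest share from mitochondrially encoded genes (1.62%), while S20 had the highest (3.92%). With globins left out and FPKM brought to a common sum, the score defined below still ran from 0.41 in S10 to -0.29 in S20.

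Ribosomal protein genes were among the most abundant transcripts of the bone. The median over the 71 genes at 1 FPKM or more was 810 FPKM, against 9.11 FPKM for all expressed genes. Of the 72 genes, 23 exceeded 1000 FPKM, 43 lay between 100 and 1000 FPKM, and 6 were under 100 FPKM. Together they took 5.44% of the counts of S10, 4.65% of S23, 4.50% of S13, 3.99% of S21, 3.23% of S12 and 2.82% of S20. The exact 95% binomial limits (Clopper-Pearson), for counting error alone, were no more than 0.01 percentage points away. S10 and S20 were thus the extremes, and their shares differed by far more than counting error.

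**Figure D1:**
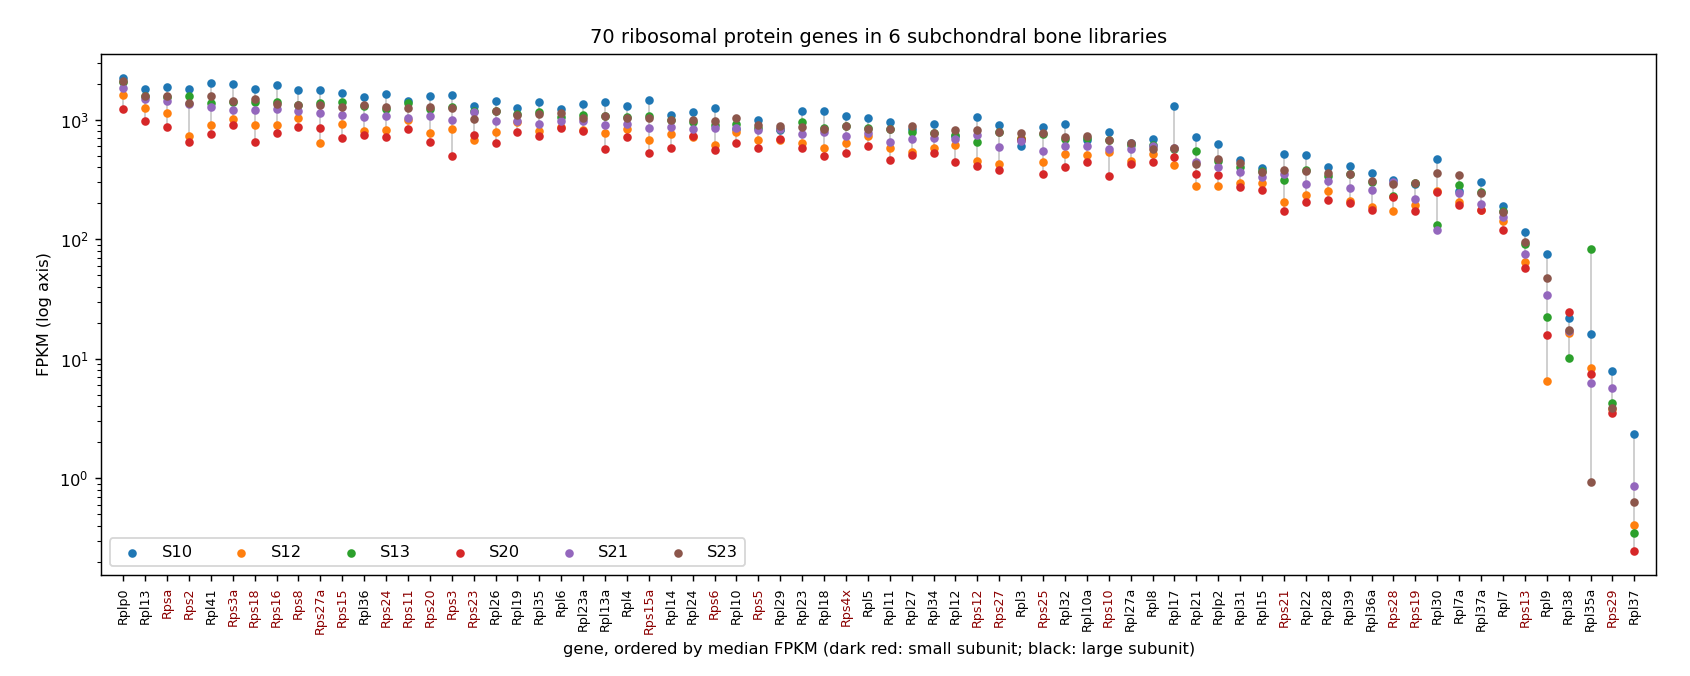
FPKM (log axis) of 70 of the 72 ribosomal protein genes, ordered by median, with 1 point per library and a grey line from the lowest to the highest library; gene names of the small subunit are dark red. S10 is highest and S20 lowest for most genes, and 6 genes at the right lie under 100 FPKM.

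The highest genes came from both subunits. Rplp0, the base of the P stalk that recruits translation factors and a common reference gene in PCR, had 2253 FPKM in S10, 2132 in S23, 2082 in S13, 1866 in S21, 1601 in S12 and 1236 in S20. Rpl13 of the large subunit followed with a median of 1548 FPKM and a range from 971 to 1807 FPKM. Rpsa, a small-subunit protein also known as the laminin receptor, had a median of 1501 FPKM and a range from 868 to 1902 FPKM. These 3 genes and the next 5 (Rps2, Rpl41, Rps3a, Rps18 and Rps16, with medians from 1297 to 1372 FPKM) were all highest in S10 and lowest in S20. Small-subunit genes had a median of 946 FPKM and large-subunit genes 714 FPKM. Over 1000 FPKM were 13 of 27 small-subunit and 10 of 45 large-subunit genes.

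Levels per length and levels by count ranked some genes differently. The length implied by the counts and FPKM had a median of 630 bases in the family, against 2263 bases for all expressed genes, and 59 of the 72 genes were under 1000 bases. Rpl7, however, had an implied length of 5627 bases, so its 162 FPKM (rank 66 of 72) stood beside a median of 43750 counts (rank 14). Rpl15, at 2037 bases, ranked 55 by FPKM and 29 by counts, and Rpl28, at 1672 bases, ranked 58 and 34. Their values under another transcript model were not computed.

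The family moved as a block between libraries. The score of a library was the distance of log2(FPKM + 1) from each gene's own median, averaged over the 71 genes. It was 0.42 in S10, 0.12 in S13, 0.11 in S23, -0.08 in S21, -0.40 in S12 and -0.55 in S20. S10 held the highest value of 61 of the 71 genes, against 11.0% of all expressed genes, and S20 the lowest value of 58, against 17.1%. Both held for 52 of 71, against 5.86% of all expressed genes. The gap between the highest and the lowest library reached 1 log2 unit or more in 38 genes, against 36.6% of all expressed genes. This was a smaller difference from all genes than that of the order. With 0.1 in place of 1 added to FPKM it was 39 of 71, against 48.6% of all expressed genes. The median gene was 2.05-fold higher in its highest library than in its lowest. In bulk tissue, fewer cells with many ribosomes and less ribosomal protein mRNA per cell cannot be told apart.

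**Figure D2:**
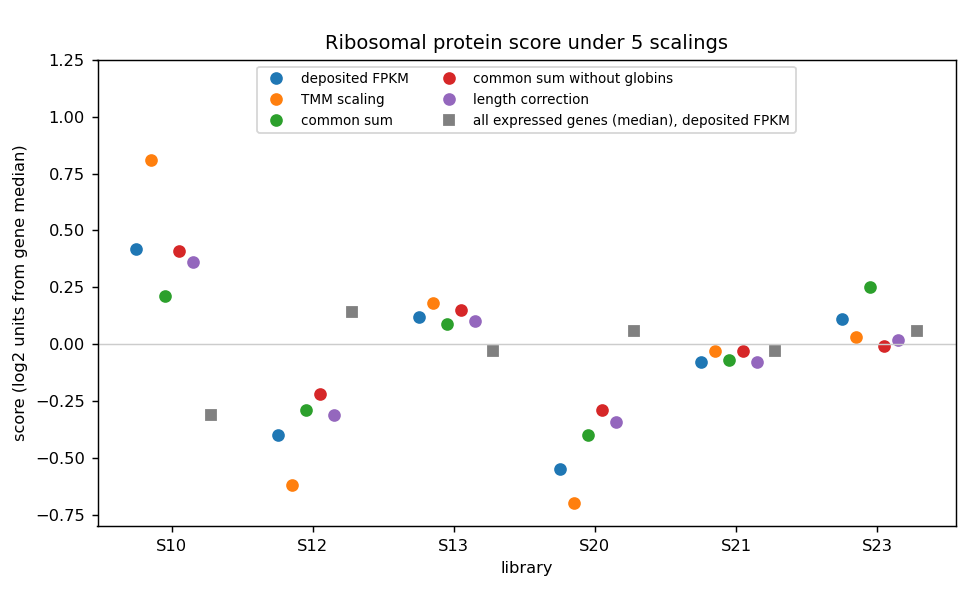
Score of the ribosomal protein genes (mean log2 difference from each gene's median, y axis) by library (x axis) under 5 scalings, with the median of all expressed genes in the deposited FPKM as grey squares. S12 and S20 are the 2 lowest libraries under each scaling shown, and S10 is the highest except when FPKM are brought to a common sum.

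The place of S12 and S20 at the low end held under every scaling tried, but the size of the gap did not. TMM scaling, which sets the bulk of genes level, widened the range of the score from 0.97 to 1.51, and S10 then held the highest value of 70 of 71 genes (32.4% of all expressed genes). Under the same scaling S20 held the lowest value of 54 (24.4%), and 67 genes reached a range of 1 (29.4%). Median-ratio scaling gave the same 3 counts for the family, beside 33.3%, 24.6% and 29.4% of all expressed genes. With FPKM brought to a common sum the range was 0.65 and the highest score moved to S23 (0.25, with 0.21 in S10). There 17 of the 71 genes reached a range of 1, against 52.7% of all expressed genes, so the family was narrower than most genes. Leaving globins out of that sum gave 20, against 49.6%. Removing each library's trend with gene length gave a range of 0.70, from 0.36 in S10 to -0.34 in S20, and 23 genes reached a range of 1, against 19.8%. Without S10 the range was 0.67, with S13 highest, and without S20 it was 0.82, with S12 lowest.

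The difference between S10 and S20 was larger in the family than in other genes of like length. Both libraries are the extremes of the family's own score, so that choice favours a larger difference in the family. Among genes with an implied length of 400 to 600 bases, S10 exceeded S20 by a median of 1.20 log2 units in 18 ribosomal protein genes and by 0.39 in 345 other genes. Between 600 and 800 bases the medians were 0.97 in 18 ribosomal protein genes and 0.42 in 382 others, and between 1000 and 1500 bases 0.79 in 9 and 0.12 in 1490. Across the 71 genes the difference and the length had a Spearman rho of -0.28, a description over genes that share libraries. The gap between each gene's own highest and lowest library does not rest on that choice, and it differed less. Its median was 1.26 in the family and 1.14 in others at 400 to 600 bases, 0.97 and 0.88 at 600 to 800, and 0.79 and 0.68 at 1000 to 1500. It was smaller in the family under 400 bases (1.19 and 1.51) and from 1500 bases (0.75 and 0.83).

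Small-subunit genes were spread more widely than large-subunit genes. Their score ranged over 1.17 log2 units, against 0.84 for the large subunit. A range of at least 1 was reached by 20 of 27 small-subunit and 18 of 44 large-subunit genes, against 36.6% of all expressed genes. The large-subunit count lay near that share. The small-subunit score minus the large-subunit score was 0.07 in S10, 0.05 in S23, 0.03 in S21, -0.01 in S13, -0.14 in S12 and -0.26 in S20. The 2 libraries with the lowest family score, S12 and S20, were thus also those with relatively fewer small-subunit transcripts. This difference compares genes inside a library and does not move with its scaling: its range was 0.33 under TMM scaling, median-ratio scaling and both common sums, and 0.25 after correction for length. It was 0.36 when only the 66 genes at 100 FPKM or more were kept, and 0.21 without S20. In counts, small-subunit genes made up 42.4% of the family in S10, 40.5% in S13, 40.0% in S23, 39.8% in S21, 36.9% in S12 and 35.9% in S20.

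**Figure D3:**
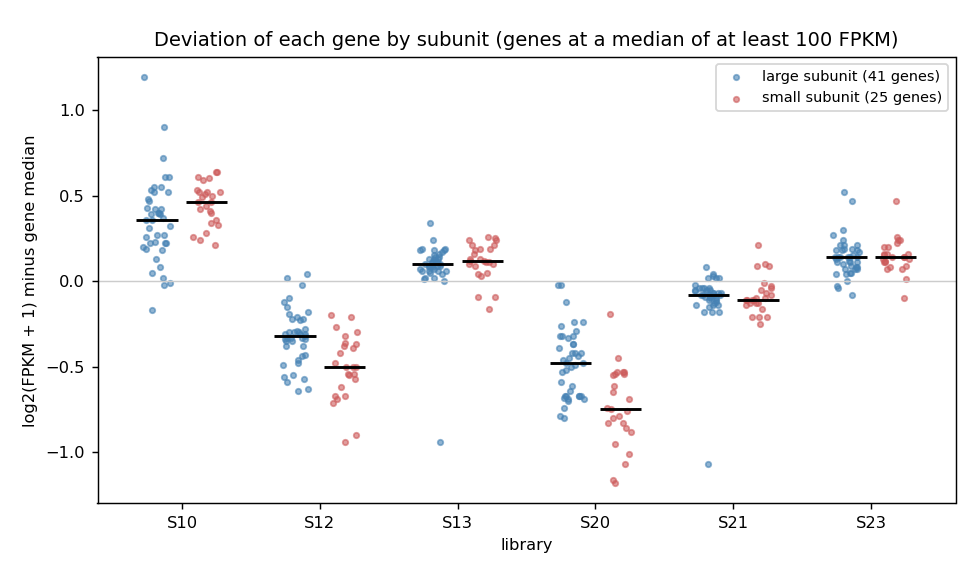
Deviation of each gene from its own median (log2 units, y axis) in each library (x axis) for the 66 genes at a median of at least 100 FPKM, large subunit in blue and small subunit in red, with black bars at the median of each set. The red bar lies under the blue bar in S12 and S20.

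Several small-subunit genes gave examples of this spread. Rps3, at the mRNA entry channel, had 1619 FPKM in S10, 1276 in S13, 1260 in S23, 1003 in S21, 842 in S12 and 501 in S20. Rps21 ranged from 172 FPKM in S20 to 520 FPKM in S10, and Rps2 from 655 to 1809 FPKM in the same libraries. In the large subunit Rpl17, which lines the exit tunnel, had 1318 FPKM in S10 and between 418 and 584 FPKM in the other libraries, so its range of 1.65 rests on S10.

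A core of genes kept nearly constant proportions to the family. After the family score was taken off, the range over the libraries was under 0.25 log2 units in 17 of 71 genes and under 0.5 in 50, with a median of 0.38. Rps13 (0.12), Rpl35 (0.13), Rps4x (0.14) and Rpl23 (0.15) followed the family most closely. Rps13 did so at 57.9 to 114 FPKM, more than 10 times under the level of Rpl35, which had 731 to 1423 FPKM. The X-linked Rps4x ranged from 528 to 1080 FPKM.

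**Figure D4:**
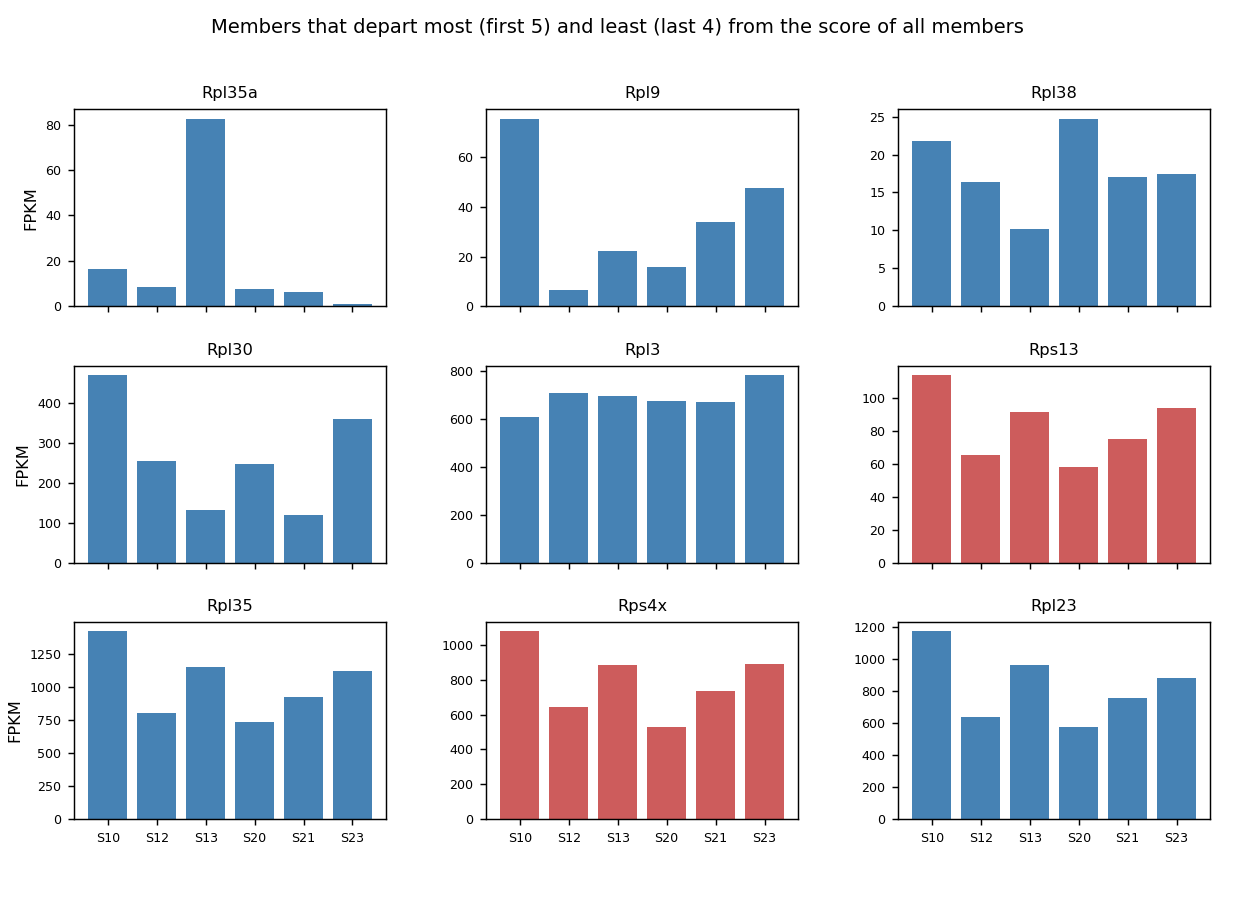
FPKM by library of the 5 genes that departed most from the family score (Rpl35a, Rpl9, Rpl38, Rpl30 and Rpl3) and the 4 that departed least (Rps13, Rpl35, Rps4x and Rpl23), large subunit in blue and small subunit in red. The last 4 panels share 1 shape, highest in S10 and lowest in S20, while Rpl3 is nearly level and Rpl35a is high in S13.

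Among abundant genes Rpl3 was the exception. Rpl3, a large protein that reaches toward the peptidyl transferase centre, had 609 FPKM in S10, 669 in S21, 675 in S20, 697 in S13, 706 in S12 and 783 in S23. It was lowest in S10, where the family was highest, and its range of 0.36 was the smallest of the 71 genes. Rpl29 (678 to 886 FPKM, range 0.39) and Rpl6 (858 to 1222 FPKM, 0.51) also varied little. Rpl10, which joins the large subunit late in its assembly, was highest in S23 at 1037 FPKM and had 834 FPKM in S10. In all, 8 genes were highest in S23, and a single gene each in S13 (Rpl35a) and S20 (Rpl38).

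Rpl30 stood at 2 levels. It had 470 FPKM in S10, 360 in S23, 255 in S12 and 248 in S20, but 131 in S13 and 119 in S21. S13 and S21 thus lay under the rest by more than their own distance from each other, and after the family score was taken off they stood at -1.06 and -0.99 log2 units. The gene had 2680 and 2690 counts in these libraries and 3852 to 7117 in the others, a gap far wider than counting error.

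Several genes at low levels departed from the family. Rpl9 had 75.5 FPKM in S10, 47.5 in S23, 34.1 in S21, 22.4 in S13, 16.0 in S20 and 6.56 in S12. Rpl35a, also a Diamond-Blackfan anemia gene, had 82.6 FPKM in S13, with a Poisson interval of 78.7 to 86.8 for counting error, and 0.938 FPKM in S23, with an interval of 0.546 to 1.5. Its other libraries lay between 6.23 and 16.2 FPKM. Rpl38 (10.1 to 24.7 FPKM) and Rps29 (3.55 to 7.97 FPKM) stayed low in all 6 libraries, and Rpl37, with 5 to 38 counts and a median of 0.519 FPKM, was the single gene under 1 FPKM. Ribosomes need these proteins in the same number as the others, yet their rows stood far under the family.

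Near-identical copies of these genes bear on such values. Ribosomal protein genes have many processed copies in rodent genomes, and the sources used here do not say how reads that match several copies were counted, so values of genes with copies are uncertain. A row named Rpl35al1, which RefSeq lists as a synonym of Rpl35a, had 126 FPKM in S13 and 1.12 FPKM in S23, the same order as Rpl35a at both ends. Rps19l2, a synonym of Rps19, had a median of 419 FPKM, above the 254 FPKM of the row named Rps19, the first gene linked to Diamond-Blackfan anemia. Rps9 had no row of its own name, and its synonym Rps9l1 had 1273 FPKM in S10, 695 in S20 and a median of 1039 FPKM, highest and lowest in the same libraries as the family. No row matched Rps7, Rps14, Rps26 or Rplp1 by name.

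Several names held more than 1 row. Rps27a, a fusion of ubiquitin and a small-subunit protein, had 646 FPKM in S12, its lowest library, in the row used, while its second row was highest in S12 at 377 FPKM and had 128 FPKM in S20. Rpl21 had 4 rows, of which the row used had a median of 437 FPKM and the others 249, 174 and 1.99 FPKM. The 2 rows of Rpl7a had medians of 250 and 220 FPKM, those of Rpl38 17.3 and 9.11 FPKM, and those of Rpl32 652 and 13.9 FPKM. Summing all rows of a name left the score's range at 0.97.

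Genes with known roles in the ribosome mostly followed the family. The P stalk protein Rplp2 had 631 FPKM in S10 and 278 FPKM in S12, its lowest library. Rpl5 and Rpl11, which bind the smallest ribosomal RNA of the large subunit and hold back MDM2 when ribosome assembly fails, ranged from 605 to 1047 FPKM and from 465 to 967 FPKM, both highest in S10 and lowest in S20. Rps6, the protein phosphorylated by S6 kinase, had 1260 FPKM in S10, 983 in S23, 902 in S13, 852 in S21, 621 in S12 and 559 in S20. At the exit tunnel, Rpl4 ranged from 718 to 1295 FPKM and Rpl39 from 202 to 413 FPKM, both with the same ends.

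Of 18 Diamond-Blackfan anemia genes listed, 16 had a row. Their median level was 653 FPKM, and 13 were highest in S10 and 14 lowest in S20, shares close to those of the family they belong to (61 and 58 of 71, against 11.0% and 17.1% of all expressed genes). Rps24 (718 to 1650 FPKM), Rpl26 (645 to 1436 FPKM) and Rps10 (339 to 794 FPKM) had these ends. Rpl27 and Rps19 were highest in S23, at 884 and 298 FPKM, and Rpl35a in S13. Most erythroid marker genes had another order: 6 of 7 (of Alas2, Slc4a1, Epor, Tfrc, Klf1, Ahsp and Epb42) were highest in S20, as were 28.8% of all expressed genes. None was at 0, and their summed level was 2897 FPKM in S10, 3330 FPKM in S20 and 1606 FPKM in S23. The exception was Ahsp, with 1748 FPKM in S10 and 1127 in S20, and it made up most of the S10 sum. Globins also had a larger share of counts in S10 (27.6%) than in S20 (19.3%), so erythroid transcripts did not share 1 order.

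Ribosome-associated genes outside the name pattern included a gene with another order. Fau, a fusion of a ubiquitin-like domain and a small-subunit protein, had 228 FPKM in S20, 180 in S12, 122 in S23, 118 in S21, 31.2 in S10 and 19.8 in S13. Its 2 lowest libraries, S10 and S13, were those with the highest family scores. Rack1, the scaffold protein on the small subunit, ranged from 597 FPKM in S20 to 926 FPKM in S10.

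Other genes of the translation machinery shared the pattern in part. Mitochondrial ribosomal protein genes, which build the separate ribosome of mitochondria, had a score of 0.16 in S10, -0.17 in S12 and -0.23 in S20. Of the 75 that were expressed, 42 were highest in S10 and 42 lowest in S20 (11.0% and 17.1% of all expressed genes), and their range of 0.39 was smaller than that of the cytosolic family. Under TMM scaling their score was 0.53 in S10 and lowest in S12 (-0.39, with -0.37 in S20). Mrpl33, their most abundant member, had 212 FPKM in S10 and 99.0 in S20, and Mrps21 had 102 and 52.5 FPKM.

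**Figure D5:**
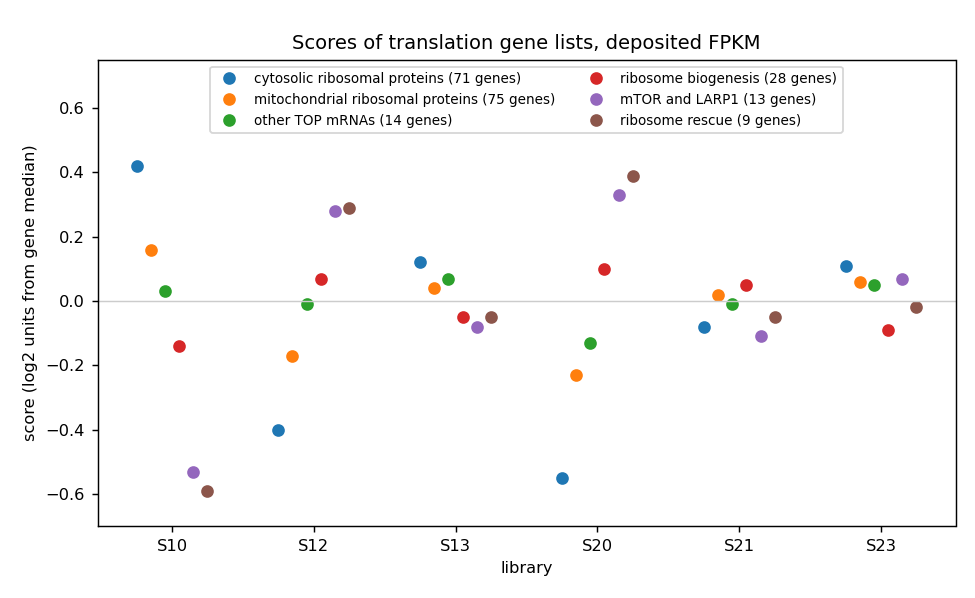
Score of 6 gene lists (mean log2 difference from each gene's median, y axis) by library (x axis), deposited FPKM. Cytosolic and mitochondrial ribosomal protein genes are highest in S10 and lowest in S20, and the mTOR and ribosome rescue lists are lowest in S10 and highest in S20, before any scaling.

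Other genes known for TOP mRNAs, mostly translation factors but also Tpt1, Npm1, Hnrnpa1 and Vim, varied little as a list in the deposited FPKM. Of 16 listed genes 14 were expressed, their score ranged over 0.20, and 6 were highest in S10 and 7 lowest in S20, against the same 11.0% and 17.1%. Under TMM scaling the range was 0.70, from 0.43 in S10 to -0.27 in S20. Eef1b2, a subunit of the exchange factor of elongation, had 508 FPKM in S10 and 181 in S20, and the TOP gene Tpt1 had 2654 and 1648 FPKM. Eef1a1, the elongation factor that carries tRNA, had 3796 FPKM in S13 and 2579 in S20, and Pabpc1, the poly(A)-binding protein, ran the other way with 319 FPKM in S10 and 820 FPKM in S20. Other genes with a run of C and T at the annotated start, which need not be a TOP tract, had near-background counts. Among 367 other expressed genes with a run of at least 10 bases, 8.99% were highest in S10 and 17.2% lowest in S20. The shares were 10.2% and 15.9% of 7020 genes with a run under 6 bases.

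Genes that make ribosomes had a narrower range than the genes that compose them, and their order depended on the scaling. The score of 28 ribosome biogenesis genes ranged over 0.24, from -0.14 in S10 to 0.10 in S20, and 5 were highest in S10 and 6 lowest in S20, against 11.0% and 17.1% of all expressed genes. Npm1, a nucleolar chaperone, was nearly level at 394 to 459 FPKM. Ncl (nucleolin) was highest in S20 at 241 FPKM, whereas the small Nhp2 of the RNA-modifying complexes had 63.5 FPKM in S10 and 30.7 in S20. Under TMM scaling the list's highest library became S10 (0.24) and its lowest S23 (-0.15).

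The regulators of ribosomal protein mRNAs had the opposite ends. The mTOR and LARP1 list scored -0.53 in S10 and 0.33 in S20. None of its 13 genes was highest in S10, against 11.0% of all expressed genes, a small difference for 13 genes. Larp1, which binds the TOP tract, had 24.0 FPKM in S20, 18.3 in S12, 13.6 in S23, 10.6 in S13, 10.6 in S21 and 4.88 in S10, so S12 and S20 were its highest libraries and the family's lowest. Eif4ebp2, a repressor of cap-dependent translation under mTOR, had 7.14 FPKM in S10 and 31.9 in S20, while Eif4e and Rheb were nearly level (34.9 to 38.7 and 61.1 to 69.8 FPKM). The ribosome rescue list, led by Hbs1l (25.8 to 39.0 FPKM), Gtpbp2 (16.0 to 33.2 FPKM), Gtpbp1 (10.6 to 33.3 FPKM) and Abce1 (11.9 to 25.7 FPKM), scored -0.59 in S10 and 0.39 in S20. Transcripts of both lists are long, with a median implied length of 2627 and 3768 bases, and correction for length narrowed their ranges from 0.86 to 0.37 and from 0.98 to 0.18. The score of the mTOR list still ran from -0.18 in S10 to 0.19 in S20 after that correction, and from -0.22 to 0.19 under TMM scaling.

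Markers of marrow cells also differed between these libraries. The summed level of 8 neutrophil genes was 74090 FPKM in S23, 43720 in S21, 42770 in S10, 40260 in S13, 21500 in S12 and 17140 in S20, so its 2 lowest libraries were those of the ribosomal protein score. Of the neutrophil genes 4 of 8 were lowest in S20, against 17.1% of all expressed genes. Mpo and Mmp8 were lowest in S10, and S100a8 and S100a9 made up most of the sum. Proliferation genes had 341 FPKM in S10 and 601 in S20, the reverse ends, with 5 of 6 highest in S20 (28.8% of all expressed genes). The exception was Birc5, with 107 FPKM in S10 and 92.4 in S20. The range of the proliferation score was 1.0 before and 0.70 after correction for length. Under TMM scaling that score was again highest in S20 (0.40) but lowest in S23 (-0.20, with -0.06 in S10). Ltf was at or near 0 in all libraries, at most 0.0301 FPKM, and no proliferation gene was at 0. B cell genes had 155 FPKM in both S12 and S20 and 52.4 FPKM in S21. Of the cells that define bone, 6 osteoblast genes summed to between 1257 FPKM in S23 and 1718 FPKM in S10. Spp1 and Bglap made up most of that sum, and the score of the 6 genes was instead lowest in S10 (-0.17) and highest in S12 (0.24). The sum of 5 osteoclast genes lay between 417 FPKM in S21 and 811 FPKM in S23. None of the osteoblast and osteoclast genes was at 0, and Calcr was under 1 FPKM in all libraries. The part of these cell types in the ribosomal protein pattern was not tested.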

How the data were processed

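RNA-seq of 6 libraries of rat subchondral bone was analysed from 1 table. Per the labels' protocols, RNA came from an RNeasy kit and libraries from a SMARTER mRNA-Seq kit. The authors deposited raw counts, not normalized, for each gene and library. Beside them stand FPKM values from the authors, named so per the file headers. Aligner and counting tool: not given in the sources used here. According to the submitters' processing notes, the builds are GRCm38 and mm10, mouse builds, although row IDs are rat, so no coordinates of the files are given. RefSeq promoters (GRCr8) were matched by symbol.

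Of the table's rows, 10 held no values and 30600 were kept, of which 8550 were loci outside the annotation. All value columns were used. The score uses log2(FPKM + 1), genes at a median of at least 1 FPKM, and each gene's median over the libraries. Implied length is the count divided by FPKM and total count, and it varied by 3.59% between libraries. Scaling factors came from edgeR 4.0.16 (TMM) and median ratios in R 4.3.3, applied to counts per length. For the length correction, genes were put into 20 bins by length and the library's bin median was subtracted. Scripts ran on Python 3.11.15, and the score was tested on simulated data. The sources used here do not say whether each library is another animal.

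The genes and lists were chosen with earlier results of these data known. Named genes are the 8 highest and 8 lowest, those with the widest spread, those departing most and least from the score, those with several rows, the role groups, and the highest of each related list. The motifs, the run of C and T and the printed promoters were chosen after the sequences were seen, and Rpl29, Rpl6, Rpl10, Rpl15, Rpl28 and the genes named as examples in the lists after their values were seen. None of 10 snoRNA host genes listed had a row of that name. A few genes that these choices cover are not reported here by name and are left out of the plots that name genes, while counts and scores include them.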

Additional observations from a re-analysis of the deposited data

How the results depend on the processing

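The range of the ribosomal protein score, 0.97 in the deposited FPKM, was 1.51 under TMM scaling and 1.52 under median-ratio scaling, and lay between 0.65 and 0.97 under the other scalings, filters and pseudocounts and when each library was left out. S20 was lowest throughout, except when it was itself left out (S12), and S10 was highest except with a common sum (S23) and without S10 (S13). The number of genes highest in the top library, 61 in the deposited FPKM, ran from 26 to 62 when a library was left out. The 26 were found without S10, against 7.12% of all expressed genes, and the 62 stood against 11.7% to 13.4%. The number with a range of at least 1, 38 in the deposited FPKM, was 67 under both TMM and median-ratio scaling. It was 17 with a common sum (52.7% of all expressed genes) and 20 with a common sum without globins (49.6%). After length correction it was 23 (19.8%). When a library was left out it ran from 15 to 38 of the 71 genes. The 15 were found without S10, against 13.57% of all expressed genes. The 38 were found without S21 and without S23, against 35.97% and 31.97%. Without S20 it was 22 of 71, near the 30.09% of all expressed genes. The median share of counts, 4.24%, was 5.23% when globin and mitochondrially encoded rows were taken out of the total. TMM scaling together with length correction, and a minimum of 100 FPKM, were added after the data were seen and gave score ranges of 0.76 and 0.97. No paired analysis was possible because the labels give no groups and no shared replicate numbers. With 6 libraries in no group, no spread between replicates is known. Depth limits Rpl37 (5 to 38 counts), Rpl35a in S23 (17 counts, which set the low end of that gene's range) and, less, Rps29 (49 to 113 counts).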

Other observations

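Paralogs outside the name pattern followed several orders. Rpl22l1 (43.7 FPKM in S12 and 93.3 FPKM in S10) and Rpl36al (180 FPKM in S20 and 324 FPKM in S10) were highest where the family was. Rpl7l1 was lowest in S10 at 37.6 FPKM and highest in S23 at 59.7 FPKM, and Rps27l was nearly level at 44.3 to 61.4 FPKM. Rpl3l, the form of Rpl3 known from striated muscle, had 13.9 FPKM in S12, 11.3 in S13, 10.8 in S10, 5.79 in S20, 4.88 in S21 and 4.17 in S23. The summed level of 4 skeletal muscle genes was 93.4 FPKM in S12, 30.3 in S13, 22.3 in S21, 10.03 in S10, 3.69 in S23 and 3.51 in S20, so both were highest in S12. Rpl10l and Rpl39l, known from testis, stayed at or under 1.75 and 2.38 FPKM. Rps10l1, a row with a median of 270 FPKM, and Rps4x-ps9, named as a pseudogene of Rps4x, with 203 FPKM, were as abundant as some of the family's own genes, and how many of their reads belong to Rps10 and Rps4x was not tested.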
